A study of Rattus norvegicus with 23 samples.

Results

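Nfat5, the transcription factor that answers to hypertonicity, its osmotic target genes Akr1b1, Slc6a6, Slc6a12 and Slc5a3, and the urea transporter gene Slc14a2 were followed in 23 kidney samples from male rats. The genes were chosen by symbol, and the brightest probe set of each, by mean over all arrays, stands for it. Of these 6 genes, 5 had a probe set with a single gene symbol, 13 probe sets in all, out of 31042 probe sets and 14217 genes on the array. Slc6a12, the betaine transporter gene, had none under the annotation used here and was not analysed. The rats belonged to the strains SBH/y and SBN/y, known as the hypertension-prone and the hypertension-resistant line of the Sabra rat. The groups were SBH/y with 1 kidney (6 arrays) and with 2 kidneys (6 arrays), and SBN/y with 1 kidney (6 arrays) and with 2 kidneys (5 arrays). Rats with 1 kidney had lost the right one by uninephrectomy, and those with 2 had a sham operation. Rats of all groups ate standard chow, had free access to water and were examined when 4 months old, and 3 months had passed since the operation. The labels name kidney and no dissected zone, so the share of medulla in a sample is not known, and fewer cells of a type cannot be told apart from less RNA per cell.

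The renal medulla is hypertonic, and its cells balance the salt outside with organic osmolytes that do not disturb proteins. Nfat5, also called TonEBP, binds tonicity elements near genes that make or import these osmolytes. Akr1b1 encodes aldose reductase, which makes sorbitol from glucose. Slc6a6 imports taurine, Slc6a12 betaine and Slc5a3 myo-inositol. Slc14a2 encodes the UT-A urea transporters of the inner medullary collecting duct and the thin descending limb, which take part in building the urea gradient of the medulla.

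By RefSeq on GRCr8, Akr1b1 lies on chromosome 4 from 63899222 to 63913315, Slc6a6 on chromosome 4 from 125752340 to 125826033 and Slc6a12 on chromosome 4 from 156257518 to 156275870. Slc5a3 lies on chromosome 11 from 44799787 to 44802233, inside the span of Mrps6, and whether its probe sets also read Mrps6 transcripts was not tested. Slc14a2 lies on chromosome 18 from 73887575 to 74314546 and Nfat5 on chromosome 19 from 52108982 to 52196418. RefSeq promoter windows were matched for 4 of the 6 genes, with 5 windows in all, and none was used for Akr1b1 or Nfat5. The 250 bases before each start were searched on both strands for a tonicity element, written as GGAAA, then 4 bases of any kind, then C, with overlapping matches counted. It occurred in 1 window each of Slc6a6 and Slc6a12, and in neither the window of Slc5a3 nor the 2 windows of Slc14a2. Among all 33469 windows, 16.5% held a match. The 2 matches are shown because, of the osmolyte transporter genes among the 6, only Slc6a6 was called after uninephrectomy. Its call in SBN/y was near the threshold, and Slc6a12 was not measured. A link between a match and expression was not tested. Each match is given with 10 bases of flank on each side and the motif in capitals (GRCr8, plus strand). The Slc6a6 match reads GGAAAAATAC on the other strand.
Slc6a6, chr4:125752331-125752360: ggccaagctgGTATTTTTCCacccagcagg
Slc6a12, chr4:156257399-156257428: caattgctcaGGAAAGATCCgtgagccacc
The Slc6a6 match lies 161 bases before the start that the window is built on, but just inside the gene's annotated span, which begins at 125752340. The Slc6a12 match lies 109 bases before the start. Such a match is a string of letters and not a measured binding site.

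Values were log2 expression per probe set, and the median probe set stood at 4.66. Kidney markers were read on every array, with the thick ascending limb gene Umod between 12.32 and 12.58 and the proximal tubule gene Slc34a1 between 12.09 and 12.37. Arrays of the same group correlated at 0.990 to 0.997. RNA quality was read from GAPDH controls as the log2 signal near the transcript's 3′ end less the signal near its 5′ end, and this measure averaged 0.53 ± 0.11 and 0.46 ± 0.06 in SBH/y with 1 and 2 kidneys, and 0.45 ± 0.04 and 0.35 ± 0.03 in SBN/y with 1 and 2 kidneys (SD).

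After uninephrectomy, Akr1b1 fell in both strains and Slc6a6 fell in SBN/y, while Slc5a3, Slc14a2 and Nfat5 passed the test in neither. A gene was called when its adjusted p in limma was under 0.05 over all 31042 probe sets. In SBH/y, 1 of 5 measured genes was called, downwards, where 2.40% of all genes were called lower and 7.16% in either direction. In SBN/y, 2 of 5 were called, both downwards, where 0.0985% of all genes were called lower and 0.253% in either direction. With the responses averaged over both strains, Akr1b1 fell by 0.55 ± 0.08 (SE; adjusted p = 7.84e-05) and Slc6a6 by 0.28 ± 0.06 (adjusted p = 0.00435), 2 of 5 genes against 2.29% called lower and 6.41% in either direction. None of the 5 was called for a difference between the responses of the strains, where 0.408% of genes were. Between strains, 0 of 5 were called with 2 kidneys, against 11.0% of genes in either direction. With 1 kidney 1 of 5 was called, Nfat5, against 17.7%. The strain and uninephrectomy comparisons share arrays, so their results are not independent of each other.

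**Figure D1:**
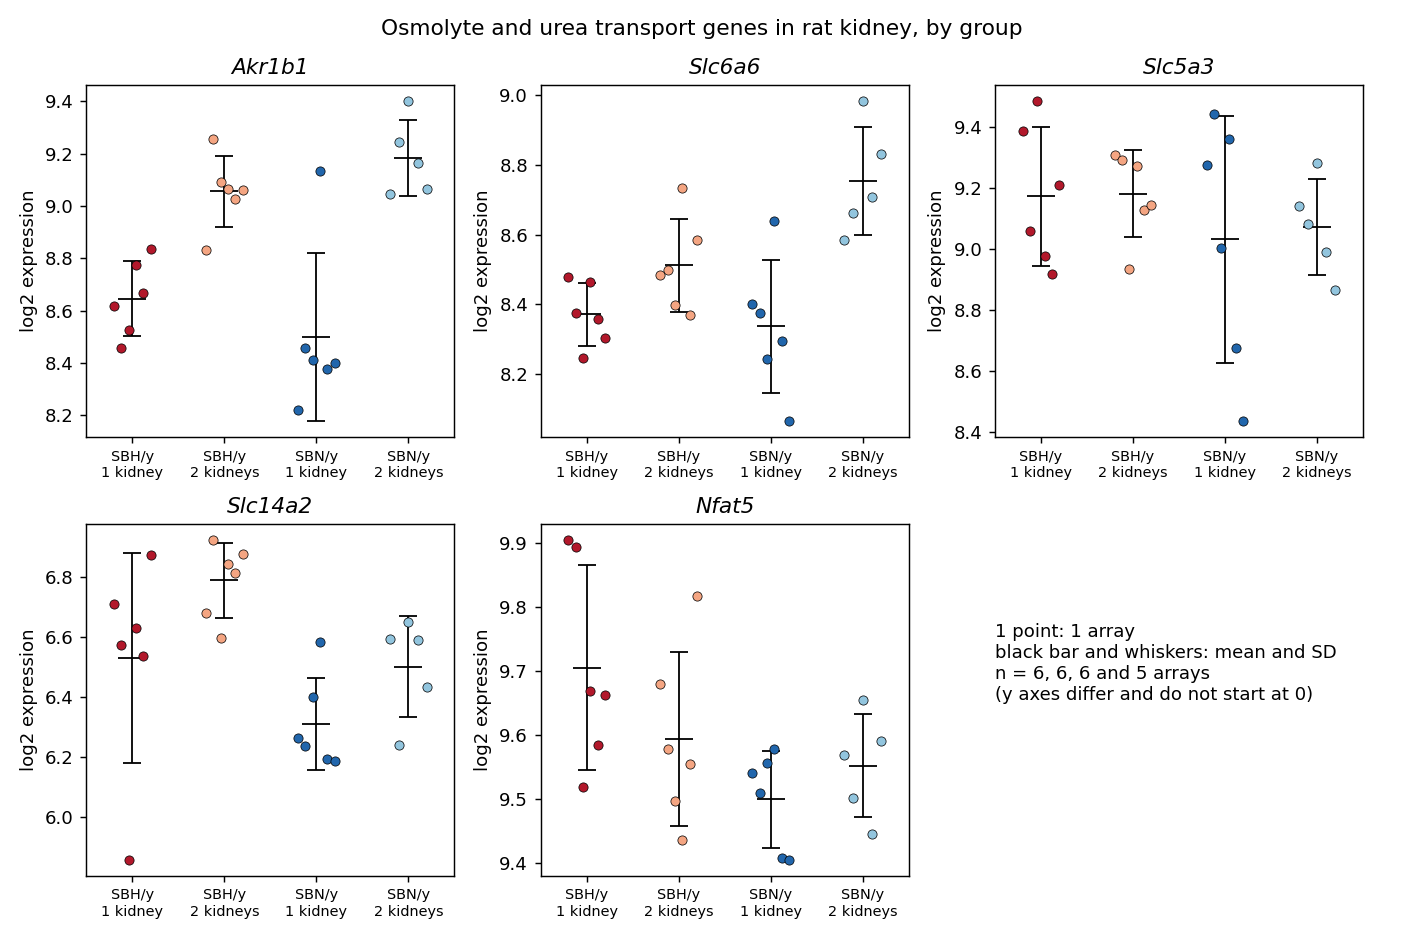
Log2 expression (y axis) of the 5 measured genes on each array (points), by group (x axis), with mean and SD (bar and whiskers; n = 6, 6, 6 and 5). Akr1b1 averaged 8.65 in SBH/y with 1 kidney against 9.06 with 2, and 8.50 in SBN/y with 1 kidney against 9.18 with 2; 1 SBN/y array with 1 kidney stood at 9.14.

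Akr1b1, the aldose reductase gene, was among the brighter genes here. In SBH/y the lowest, median and highest log2 values were 8.46, 8.64 and 8.84 with 1 kidney, against 8.83, 9.06 and 9.26 with 2 kidneys. The groups met at a single point, since the highest array with 1 kidney (8.835) was just above the lowest with 2 (8.834). The difference was -0.41 ± 0.11 (SE; adjusted p = 0.0212, limma). In SBN/y the lowest, median and highest values were 8.22, 8.41 and 9.14 with 1 kidney, against 9.05, 9.16 and 9.40 with 2 kidneys. Of the 6 arrays with 1 kidney, all but replicate 4 stood at or below 8.46, far under every array with 2 kidneys, and replicate 4 stood among them. The difference was -0.68 ± 0.11 (SE; adjusted p = 0.00699), a level 1.61-fold lower. Without replicate 4 it was -0.81, with adjusted p = 1.12e-05. The SBH/y call ended without replicate 2 of SBH/y with 2 kidneys (adjusted p = 0.0609) or replicate 2 of SBH/y with 1 kidney (adjusted p = 0.0571), at -0.37 each, and with the GAPDH measure as a covariate (-0.35, adjusted p = 0.102).

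By the difference between responses, SBH/y minus SBN/y, Akr1b1 gave 0.27 ± 0.16 (SE), with a 95% confidence interval from -0.05 to 0.59 and adjusted p = 0.705. The strains differed by -0.13 ± 0.11 with 2 kidneys (adjusted p = 0.622) and by 0.15 ± 0.11 with 1 kidney (adjusted p = 0.473), both as SBH/y minus SBN/y. Without replicate 4 of SBN/y with 1 kidney, the difference with 1 kidney was 0.27 and passed (adjusted p = 0.0182). In order of mean level, SBN/y with 2 kidneys came first, then SBH/y with 2 kidneys, SBH/y with 1 kidney and SBN/y with 1 kidney, and neighbours in that order overlapped. A second probe set averaged 4.46, below the median probe set, and differed by 0.01 ± 0.08 in SBH/y and -0.07 ± 0.09 in SBN/y. It therefore did not show the fall that the bright probe set showed.

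**Figure D2:**
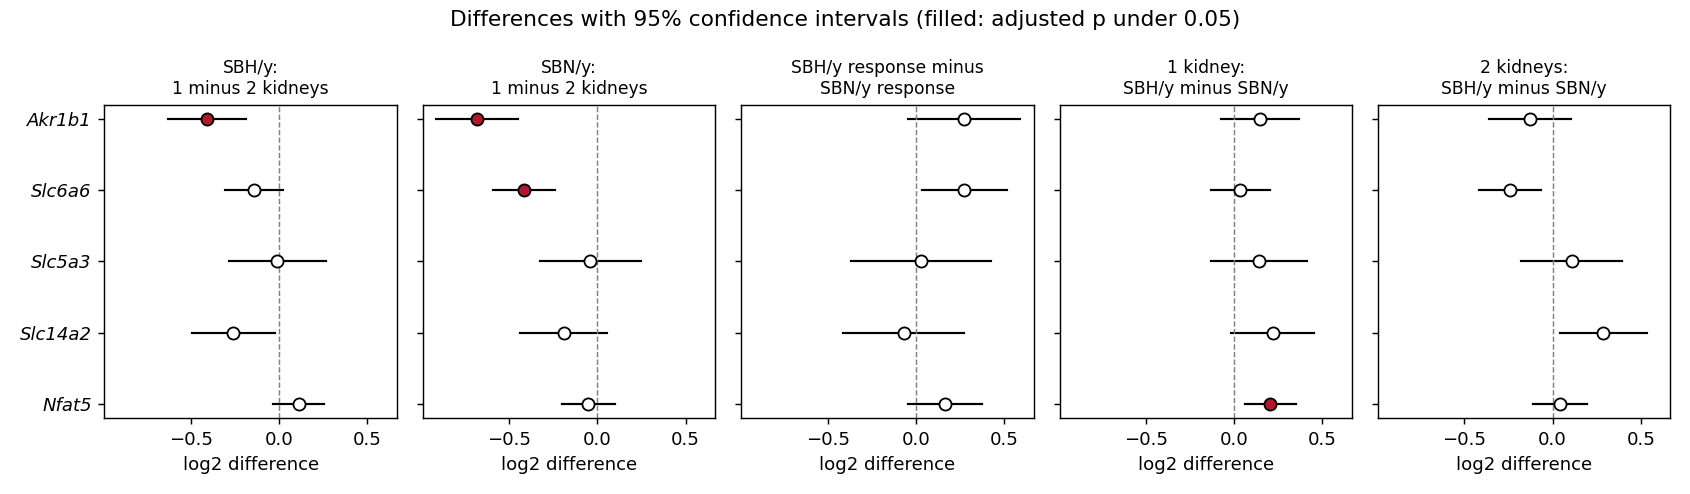
Log2 differences (x axis) with 95% confidence intervals for the 5 measured genes (rows) in 5 comparisons (panels); filled points passed an adjusted p of 0.05. Akr1b1 passed at -0.41 in SBH/y and -0.68 in SBN/y, Slc6a6 at -0.42 in SBN/y, and Nfat5 at 0.21 between strains with 1 kidney.

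Slc6a6, the taurine transporter gene, had a pair of probe sets. In SBH/y the brighter one's lowest, median and highest log2 values were 8.25, 8.37 and 8.48 with 1 kidney, against 8.37, 8.49 and 8.73 with 2 kidneys. The lower group reached into the range of the other, and the difference of -0.14 ± 0.08 (SE; 95% interval -0.31 to 0.03) did not pass (adjusted p = 0.434). In SBN/y the values were 8.07, 8.34 and 8.64 with 1 kidney, against 8.58, 8.71 and 8.98 with 2 kidneys. Only replicate 4 with 1 kidney, the array that also stood high for Akr1b1, reached the range of the rats with 2 kidneys. Slc6a6 fell by 0.42 ± 0.09 in SBN/y (SE; adjusted p = 0.0339). This call was near the threshold: it held in 14 of 23 fits that left out 1 array, in which the adjusted p ran from 0.00726 to 0.153. It ended without replicates 2 (0.0505), 3 (0.153), 4 (0.0767) or 5 (0.0987) of SBN/y with 2 kidneys, and without replicates 1 (0.0602), 2 (0.0614), 3 (0.0930), 5 (0.0790) or 6 (0.0846) of SBN/y with 1 kidney, values being adjusted p. It also ended with the GAPDH measure as a covariate (-0.41, adjusted p = 0.0868), with the mean of proximal tubule markers as a covariate (adjusted p = 0.0698) and with only the groups compared in the fit (adjusted p = 0.0954).

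The second probe set of Slc6a6 averaged 7.47 and was lower in SBN/y after uninephrectomy by a similar amount, -0.53 ± 0.12 (SE), just short of the threshold (adjusted p = 0.0651). In SBH/y it differed by 0.01 ± 0.11. On this probe set the strains differed with 2 kidneys: its lowest, median and highest values were 7.17, 7.32 and 7.62 in SBH/y, against 7.39, 7.90 and 8.22 in SBN/y, a difference of -0.49 ± 0.12 that passed (adjusted p = 0.00608). On the brighter probe set the same comparison gave -0.24 ± 0.09 and missed the threshold (adjusted p = 0.0802). With 1 kidney, the strains differed by 0.03 ± 0.08 and 0.05 ± 0.11 on the bright and the dimmer probe set. The level in SBN/y with 2 kidneys was thus the highest of the 4 groups on both probe sets. The response of SBH/y minus that of SBN/y was 0.28 ± 0.12 (95% interval 0.03 to 0.52) with adjusted p = 0.516, and 0.54 ± 0.16 with adjusted p = 0.228 on the dimmer probe set.

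Slc5a3, the sodium-dependent myo-inositol transporter gene, did not pass in any comparison. In SBH/y its lowest, median and highest log2 values were 8.92, 9.13 and 9.48 with 1 kidney, against 8.94, 9.21 and 9.31 with 2 kidneys. In SBN/y they were 8.44, 9.14 and 9.44 with 1 kidney, against 8.87, 9.08 and 9.28 with 2 kidneys. All groups overlapped, and the SD was 0.40 in SBN/y with 1 kidney against 0.16 with 2. The uninephrectomy difference was -0.01 ± 0.13 in SBH/y (SE; 95% interval -0.28 to 0.26; adjusted p = 0.990) and -0.04 ± 0.14 in SBN/y (-0.33 to 0.25; adjusted p = 0.988). The intervals take in falls as large as 0.28 and 0.33, so they do not show that its level was the same. Its second probe set averaged 3.63, below the median probe set.

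**Figure D3:**
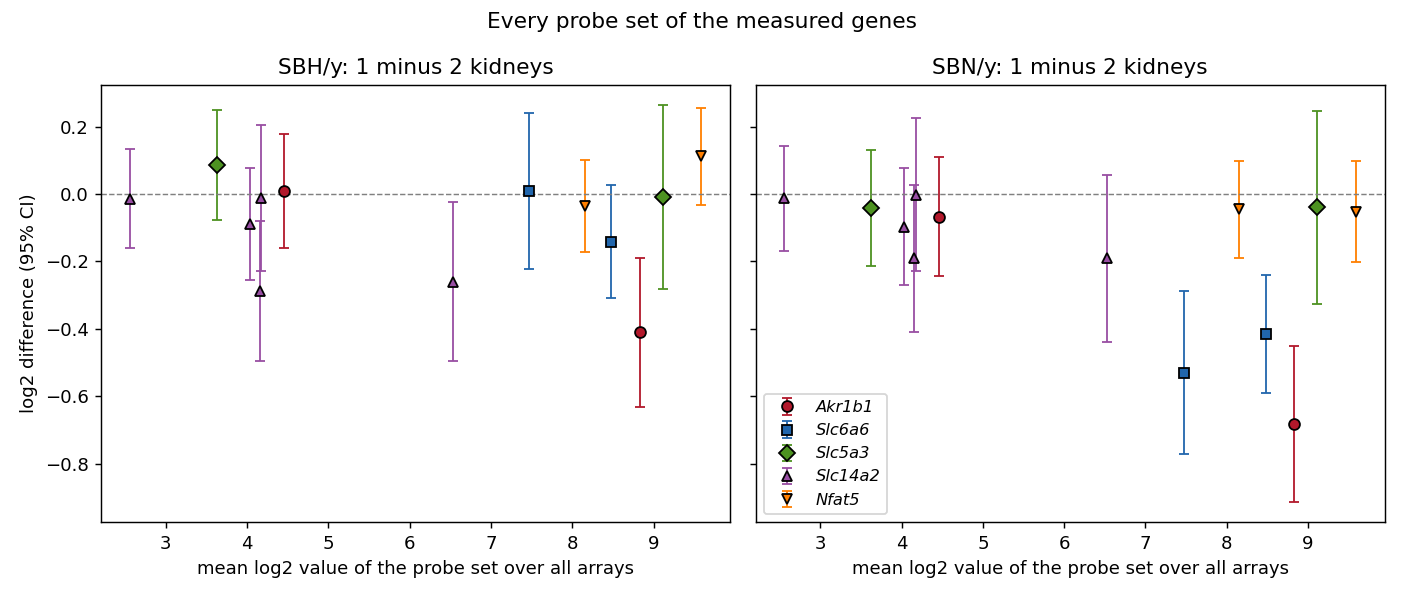
Log2 difference after uninephrectomy (y axis, 95% confidence interval) against mean log2 level (x axis) for all 13 probe sets, in SBH/y and in SBN/y. The bright probe set of Akr1b1 lay lowest in both strains, at -0.41 and -0.68, and both Slc6a6 probe sets lay below 0 in SBN/y, at -0.42 and -0.53.

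Slc14a2, the urea transporter gene, was read by 5 probe sets, of which the brightest averaged 6.53 over all arrays. In SBH/y its lowest, median and highest log2 values were 5.86, 6.60 and 6.87 with 1 kidney, against 6.60, 6.83 and 6.92 with 2 kidneys. In SBN/y they were 6.18, 6.25 and 6.58 with 1 kidney, against 6.24, 6.59 and 6.65 with 2 kidneys. Replicate 3 of SBH/y with 1 kidney stood far below the others of its group at 5.86. The uninephrectomy difference was -0.26 ± 0.11 (SE) in SBH/y (95% interval -0.50 to -0.02; adjusted p = 0.249) and -0.19 ± 0.12 in SBN/y (-0.44 to 0.06; adjusted p = 0.798), neither past the threshold. Without replicate 3 of SBH/y with 1 kidney the SBH/y value was -0.13.

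Between the strains, Slc14a2 was higher by point estimate in SBH/y, at 6.53 against 6.31 with 1 kidney and 6.79 against 6.50 with 2 kidneys. These differences, 0.22 ± 0.11 with 1 kidney (adjusted p = 0.256) and 0.29 ± 0.12 with 2 kidneys (adjusted p = 0.163), did not pass. Without replicate 3 of SBH/y with 1 kidney both did, at 0.35 (adjusted p = 0.00407) with 1 kidney and 0.29 (adjusted p = 0.0282) with 2. This was the only 1 of 23 fits leaving out 1 array in which either passed. Over these fits adjusted p reached 0.499 with 1 kidney and 0.360 with 2. That array is in neither group with 2 kidneys, where the difference stayed the same and its SE became 0.08. With the mean of 9 markers of collecting duct principal cells as a covariate, the differences were smaller, 0.10 with 1 kidney (adjusted p = 0.521) and 0.04 with 2 (adjusted p = 0.888). With the mean of proximal tubule markers instead they were larger, 0.31 with 1 kidney (adjusted p = 0.153) and 0.42 with 2 (adjusted p = 0.142), and did not pass. With only the groups compared in the fit, the difference with 2 kidneys passed (adjusted p = 0.0375). A dimmer probe set of the same gene, which averaged 4.16 and was thus below the median probe set, passed with all 23 arrays. Its lowest, median and highest values with 1 kidney were 3.75, 4.29 and 4.51 in SBH/y, against 3.67, 3.85 and 4.03 in SBN/y, a difference of 0.38 ± 0.10 (adjusted p = 0.0102). With 2 kidneys they were 4.35, 4.51 and 4.63 in SBH/y, against 3.89, 3.96 and 4.43 in SBN/y, a difference of 0.47 ± 0.11 (adjusted p = 0.00306). The other 3 probe sets averaged 2.56 to 4.17 and differed between strains by 0.01 to 0.26, with no call.

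Nfat5, the regulator itself, had a pair of probe sets. In SBH/y the brighter one's lowest, median and highest log2 values were 9.52, 9.66 and 9.90 with 1 kidney, against 9.44, 9.57 and 9.82 with 2 kidneys. In SBN/y they were 9.41, 9.52 and 9.58 with 1 kidney, against 9.44, 9.57 and 9.65 with 2 kidneys. All groups overlapped, and the differences after uninephrectomy were 0.11 ± 0.07 in SBH/y (SE; 95% interval -0.03 to 0.26; adjusted p = 0.490) and -0.05 ± 0.07 in SBN/y (-0.20 to 0.10; adjusted p = 0.953). Nfat5 protein and activity were not measured. With 1 kidney Nfat5 was higher in SBH/y than in SBN/y by 0.21 ± 0.07 (adjusted p = 0.0490). That call held in 6 of 23 fits that left out 1 array, with adjusted p between 0.0191 and 0.149, and 2 arrays, replicates 1 and 2 of SBH/y with 1 kidney, stood at 9.905 and 9.894. It also ended with the GAPDH measure as a covariate (0.15, adjusted p = 0.247), which was highest in SBH/y with 1 kidney, with the principal cell marker mean as a covariate (0.19, adjusted p = 0.0982), and with only the groups compared in the fit (adjusted p = 0.0745). Its second probe set averaged 8.15 and gave 0.14 ± 0.07 for the same comparison (adjusted p = 0.182). With 2 kidneys the strains differed by 0.04 ± 0.07 and 0.13 ± 0.07 on these probe sets (adjusted p = 0.849 and 0.304).

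Markers of the principal cells of the collecting duct, where much of the urea and osmolyte handling takes place, moved with the groups. The mean log2 value of 9 such markers, which hold none of the 6 genes, ran from 7.51 to 7.88 in SBH/y with 1 kidney against 7.96 to 8.14 with 2 kidneys, and from 7.62 to 7.87 in SBN/y with 1 kidney against 7.81 to 7.99 with 2 kidneys. The markers Aqp2, Aqp3, Aqp4 and Avpr2 also stand in the urine concentration list below, and Aqp2 in the list of genes induced by hypertonicity. The marker mean is thus not a measure of cell share alone. Of the 9 markers, 2 fell in SBH/y, 0 in SBN/y and 5 with the responses averaged. Over all genes 2.40%, 0.0985% and 2.29% were called lower. Among the 5 were Fxyd4 (-0.39 ± 0.07, SE) and the vasopressin receptor gene Avpr2 (-0.26 ± 0.06). In SBH/y, where 7.16% of all genes were called in either direction, 5 of 6 myeloid markers rose and some markers of 4 other cell types fell. Those called lower were 4 of 5 of intercalated cells, 3 of 5 of podocytes, 2 of 4 of endothelium and 2 of 7 of the thick ascending limb. By point estimate, 5 of the 7 thick ascending limb markers were lower. In SBN/y limma called none of these lists' markers. By point estimate, all 5 intercalated cell, all 4 endothelial, 4 of 5 podocyte and 6 of 7 thick ascending limb markers were lower there. None of the 6 myeloid markers was lower. The mean of the endothelial markers ran from 7.78 to 7.94 in SBH/y with 1 kidney against 7.92 to 8.15 with 2, and from 7.88 to 8.01 in SBN/y with 1 kidney against 8.01 to 8.13 with 2. The part of these shifts in the results was not tested. Replicate 4 of SBN/y with 1 kidney, which stood high for Akr1b1 and Slc6a6, had the highest principal cell marker mean of its group (7.87). Replicate 3 of SBH/y with 1 kidney, low for Slc14a2, had the lowest of all arrays (7.51). Each also had the lowest GAPDH measure of its group, 0.37 and 0.42. Their proximal tubule marker means were the highest of the group (10.23) and of all arrays (10.39). Which of these measures goes with the outlying values was not tested. With the principal cell marker mean as a covariate, Akr1b1 was -0.06 in SBH/y (adjusted p = 0.890) and -0.42 in SBN/y (adjusted p = 0.418). Slc6a6 was -0.26 in SBN/y (adjusted p = 0.687), so their calls ended. This covariate itself differs between the groups, and its part in the results was not tested further. Proximal tubule markers averaged 10.26 against 10.25 in SBH/y and 10.16 against 10.10 in SBN/y, 1 kidney against 2, and 0 of 7 were called in either strain.

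**Figure D4:**
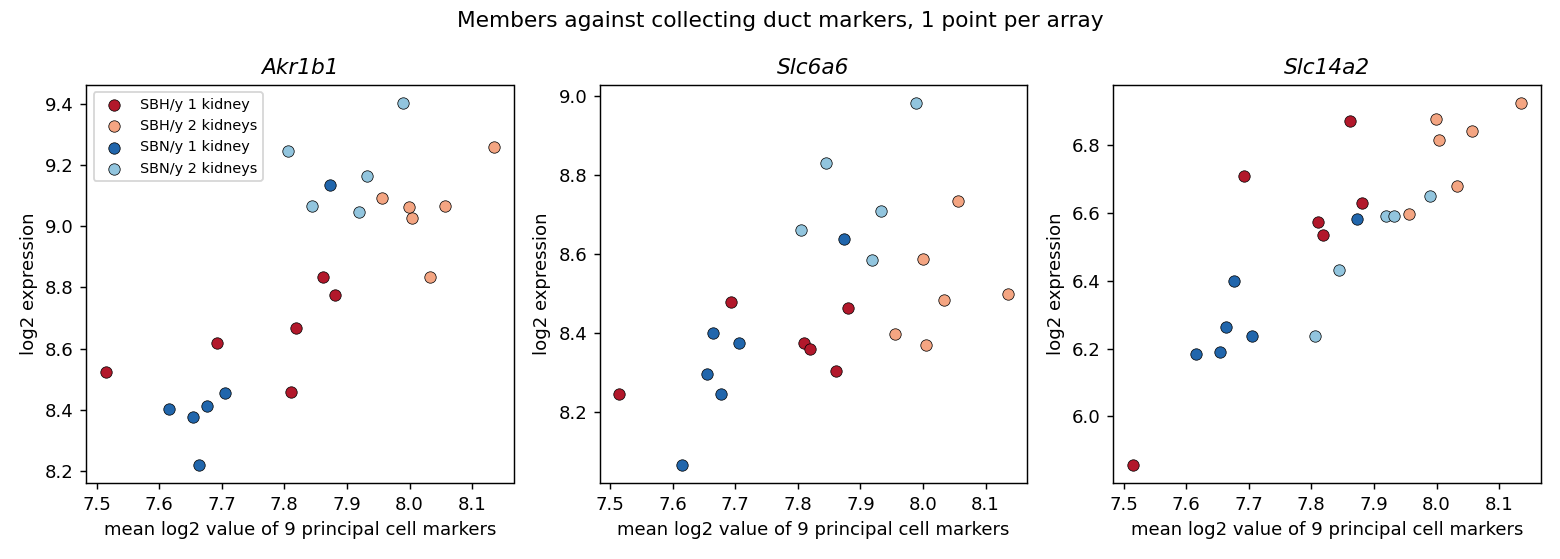
Log2 expression of Akr1b1, Slc6a6 and Slc14a2 (y axes) against the mean log2 value of 9 principal cell markers (x axis), 1 point per array, coloured by group. Arrays with 1 kidney lie to the left of those with 2 within SBH/y, at 7.51 to 7.88 against 7.96 to 8.14.

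Within groups, the genes differed in how closely they followed those markers. Over the 23 arrays, deviations from the group means correlated with those of the marker mean at 0.83 for Slc14a2, 0.61 for Akr1b1, 0.52 for Slc6a6, 0.24 for Nfat5 and 0.10 for Slc5a3. Among the 5 genes themselves, the deviations of Akr1b1 and Slc6a6 correlated at 0.51, those of Slc6a6 and Slc5a3 at 0.48, those of Akr1b1 and Slc14a2 at 0.48, and those of Akr1b1 and Nfat5 at 0.02. These correlations describe the same arrays, share their normalization and carry no test. They include 2 arrays far from their groups. Replicate 3 of SBH/y with 1 kidney was low for Slc14a2 (5.86) and for the marker mean. Replicate 4 of SBN/y with 1 kidney was high for Akr1b1 (9.14) and for the marker mean. Such single arrays weigh in the values of r, which were not recomputed without them.

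Other genes of osmolyte synthesis, breakdown and transport included 3 that fell after uninephrectomy in SBH/y, of 18 measured, where 7.16% of all genes were called: Bhmt, which uses betaine to methylate homocysteine (-0.48 ± 0.08, SE; adjusted p = 5.39e-04), Cdo1, the cysteine dioxygenase gene on the route to taurine (-0.38 ± 0.07; adjusted p = 6.21e-04), and Slc2a13, a proton myo-inositol cotransporter (-0.29 ± 0.06; adjusted p = 0.00576). In SBN/y, where 0.253% of all genes were called, limma called 0 of the 18. A looser threshold, an unadjusted limma p under 0.05, was met by 4 of them. By log2 difference these were the sorbitol dehydrogenase gene Sord (0.15), Khk (-0.14), Isyna1 (-0.17) and Chdh (-0.14). The share of all genes at this looser threshold was not computed, so these 4 cannot be read as an excess. Khk also met it in SBH/y (-0.16, unadjusted p = 0.00975). With the responses averaged, 4 fell, those 3 and Khk, which encodes ketohexokinase (-0.15 ± 0.04; adjusted p = 0.0327). None of the 18 was called for a difference between the responses of the strains (Bhmt at -0.46 ± 0.12, adjusted p = 0.128), so no such difference was shown. The median difference of the list was -0.02 in SBH/y and -0.07 in SBN/y, against 0.00 over all genes in both. Bhmt and Cdo1 also differed between strains, lower in SBH/y by -2.01 ± 0.08 and -0.70 ± 0.07 with 1 kidney and by -1.55 ± 0.09 and -0.44 ± 0.07 with 2. Of its 18 genes, the list held 7 called for strain with 1 kidney (2 higher and 5 lower in SBH/y) and 6 with 2 kidneys (2 and 4). Over all genes, 17.7% were called for strain with 1 kidney and 11.0% with 2.

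Other genes known to be induced by hypertonicity were called in both directions in SBH/y. Of 11 measured, Hspa1a, an Hsp70 chaperone gene, rose in SBH/y by 0.67 ± 0.13 (SE; adjusted p = 0.00119) and Fxyd2, a regulator of the sodium pump, fell by 0.19 ± 0.05 (adjusted p = 0.0315). In SBN/y 0 of 11 were called, and Hspa1a stood at 0.35 ± 0.13 (adjusted p = 0.455). Over all genes, 7.16% were called in SBH/y and 0.253% in SBN/y, in either direction. Between strains, 5 of the 11 were called with 1 kidney, 4 higher and 1 lower in SBH/y, against 17.7% of all genes. With 2 kidneys 3 were called, all higher in SBH/y, against 11.0% of all genes. The genes given next were both higher in SBH/y, and no strain value is given for the 1 called lower. Sgk1, the serum and glucocorticoid regulated kinase gene, was higher in SBH/y than in SBN/y by 0.95 ± 0.07 with 1 kidney and 0.99 ± 0.07 with 2. Aqp2, the vasopressin-regulated water channel gene, was higher in SBH/y by 0.61 ± 0.11 with 1 kidney and 0.40 ± 0.12 with 2. For the difference between responses 0 of the 11 were called, against 0.408% of all genes. Of 14 regulators of Nfat5, 0 were called after uninephrectomy in SBH/y, in SBN/y or averaged. The shares of all genes called there were 7.16%, 0.253% and 6.41%, so 0 of 14 is no result about these regulators. Between strains 1 of the 14 was called with 1 kidney, Parp1, higher in SBH/y (0.16 ± 0.04). With 2 kidneys 1 was called, Map2k3, lower in SBH/y (-0.21 ± 0.06).

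Of 11 other genes of urea handling and urine concentration, 3 fell in SBH/y: the water channel gene Aqp4 (-0.67 ± 0.15, SE; adjusted p = 0.00759), the chloride channel subunit gene Bsnd (-0.28 ± 0.05; adjusted p = 0.00120) and Arg2, a mitochondrial arginase (-0.34 ± 0.08; adjusted p = 0.0120). In SBN/y 0 of 11 were called, and 0 for the difference between responses, against 0.253% and 0.408% of all genes. With the responses averaged, 3 fell, Aqp4, Bsnd and Avpr2. Over all genes, 2.40% were called lower in SBH/y and 2.29% with the responses averaged. Between strains, 3 of the 11 were called with 1 kidney, 1 higher and 2 lower in SBH/y, against 17.7% of all genes. With 2 kidneys 2 were called, 1 higher and 1 lower in SBH/y, against 11.0% of all genes. Aqp4 and Avpr2 are also among the principal cell markers above, and Bsnd among those of the thick ascending limb. Aqp2, Aqp3, Slc12a1, Kcnj1 and Umod of this list are markers too, so its counts and the marker counts are not separate. Slc14a1, the UT-B urea transporter gene of vasa recta and red cells, differed by 0.01 ± 0.08 in SBH/y and 0.03 ± 0.08 in SBN/y. The list median was -0.16 in SBH/y and -0.08 in SBN/y, against 0.00 over all genes.

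**Figure D5:**
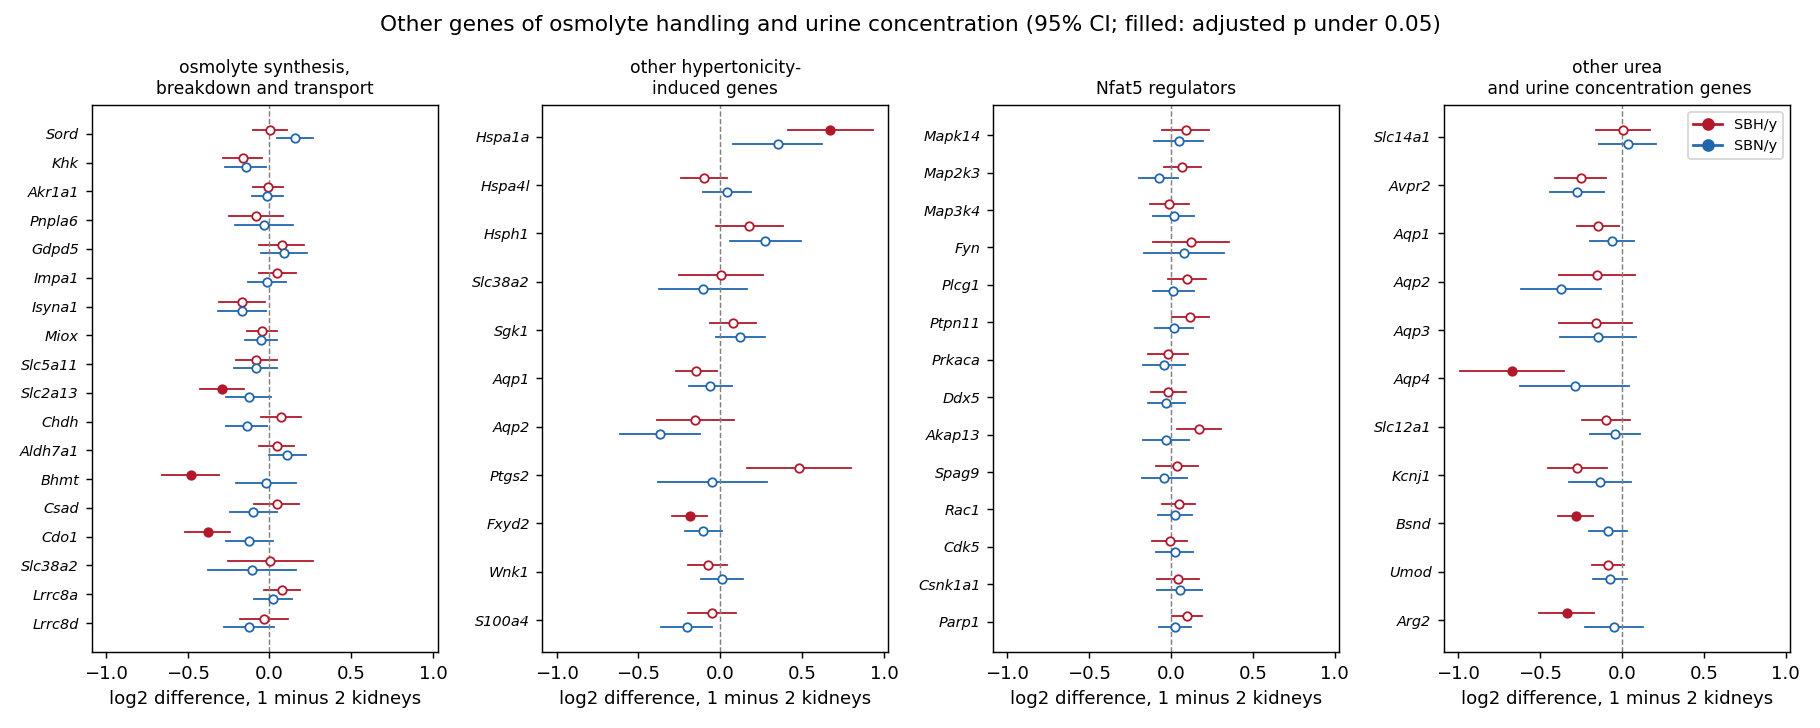
Log2 differences between 1 and 2 kidneys (x axis, 95% confidence intervals) for the other genes of 4 lists (panels; rows are genes) in SBH/y (red) and SBN/y (blue); filled points passed an adjusted p of 0.05. Filled points appear for SBH/y only, with Hspa1a at 0.67 the only one to the right of 0.

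The genes whose log2 values were most like those of each gene over the 23 arrays, by Pearson r, are given as a description. For Akr1b1 they were Cd9 (0.85), Cldn5 (0.81) and Emcn (0.81), of which Emcn is among the endothelial markers. For Slc6a6 they were Dgat2 (0.81), Akr1b1 (0.77) and Cradd (0.74), and for Slc5a3 Pkn2 (0.78), Ints6 (0.77) and Slco4a1 (0.77). For Slc14a2 they were Sytl2 (0.86), Xcl1 (0.82) and Fam43a (0.81), and for Nfat5 Rab12 (0.84), Ets1 (0.84) and Glcci1 (0.82). By deviations from the group means, the nearest were Ubl4a (0.85), Slc10a3 (0.83) and S100a9 (0.82) for Akr1b1, and Fkbp7 (0.79), Mrps6 (0.77) and Thoc3 (0.73) for Slc6a6. For Slc5a3 they were Slco4a1 (0.83), Ints6 (0.82) and Mylip (0.81), for Slc14a2 Ndrg4 (0.83), Septin4 (0.83) and Rarb (0.80), and for Nfat5 Cpe (0.86), Rngtt (0.86) and Trim2 (0.82). Akr1b1 was thus the second gene most like Slc6a6 in its log2 values. Xcl1, S100a9 and Fkbp7 averaged 3.76, 3.39 and 4.35, below the median probe set (4.66), so their r values rest on dim probe sets. The values of r in this paragraph were not recomputed without the arrays far from their groups.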

How the data were processed

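The deposited table holds RMA log2 expression for every probe set; the submitters' processing notes name GCOS and RMA without versions. RMA equalizes the distribution of the arrays, so a change in total mRNA could not be seen. No column of values was left unused. From there, 57 control probe sets were left out and the 4 group means were fitted together over all 31042 probe sets with limma 3.58.1 under R 4.3.3. Tests were two-sided, with Benjamini-Hochberg adjustment over all probe sets and a threshold of 0.05. Errors are SE of the fit unless SD is given. Gene symbols came from the array's annotation, updated by gene identifier through RefSeq; 20826 probe sets had 1 symbol, 436 several and 9780 none. The 6 genes, the lists and the markers were chosen with earlier results of these data known, so no list count is independent support. Named besides the 6 genes were up to 4 genes with the smallest p past the threshold in each list and comparison, and the 3 genes most like each of the 6; Sord, Isyna1 and Chdh in SBN/y, Slc14a1 and the markers Fxyd4, Umod and Slc34a1 were named after their values were seen. Replicates are separate samples by label, and no label says more about the animals, so p-values cover only how far these samples scatter, which may be technical. The fit was tested on simulated data. The labels and values used here give no scan date, so batches of arrays were not examined. Arrays carry no counts, and their number limits the precision. Each result was also computed after leaving out any single array, on each gene's next probe set, with arrays quantile-normalized again, without dim probe sets, on 1 probe set for every gene, with a trended and robust variance, on the compared groups alone, with replicate number as a block, and with GAPDH or a marker mean as covariate.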

Additional observations from a re-analysis of the deposited data

Results flagged for a closer look

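The spread within groups was screened for 5 genes in 4 groups, and 2 of these 20 sets of values held an array far from the others. Chance flags about 1 in 20 such sets. Akr1b1 in SBN/y with 1 kidney, replicate 4, stood at 9.14 while the next array of the group stood at 8.46, a gap of 0.742 of the group's range (0.625 is the limit for 6 arrays). Slc14a2 in SBH/y with 1 kidney, replicate 3, stood at 5.86 against 6.53 for the next array, a gap of 0.668 of the range.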

How the results depend on the processing

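Calls among the 5 genes (2 in SBN/y, 1 in SBH/y, 2 averaged, 0 for the difference between responses, 0 and 1 between strains with 2 and with 1 kidney) moved under these alternatives. A trended, robust variance gave 1 with 2 kidneys. Fitting only the groups compared gave 1 in SBN/y, 1 between strains with 2 kidneys and 0 with 1. The next probe set gave 0 in SBN/y, SBH/y and averaged, and 1 and 0 between strains with 2 and 1 kidney. Same-numbered arrays deviated together in 1 of 5 SBN/y pairs and 2 of 6 SBH/y pairs (r over 0.1), so numbers were not taken as pairs; the replicate block gave 1 in SBN/y (Slc6a6 at -0.40, adjusted p = 0.0603) and 0 between strains with 1 kidney (Nfat5, adjusted p = 0.0584). The GAPDH covariate gave 1, 0 and 0 in SBN/y, SBH/y and between strains with 1 kidney. The principal marker covariate gave 0 in both strains, averaged and between strains with 1 kidney, and 1 with 2. The proximal covariate gave 1 in SBN/y. Leaving out 1 array gave 1 to 2 in SBN/y, 0 to 1 in SBH/y, 0 to 1 between strains with 2 kidneys and 0 to 2 with 1. The quantile repeat, the filter on dim probe sets and 1 probe set per gene moved no count.

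Signs turned for differences that had not passed, except for Akr1b1 on its dim probe set. On the next probe set, SBH/y gave 0.0082 for Akr1b1, 0.0077 for Slc6a6, 0.086 for Slc5a3 and -0.036 for Nfat5; the average gave 0.022 for Slc5a3 and -0.040 for Nfat5; strains with 2 kidneys gave 0.040 for Akr1b1 and -0.092 for Slc5a3. Under the replicate block Slc5a3 gave 0.000245 in SBN/y and -0.0088 for the difference between responses. With GAPDH, Slc5a3 gave 0.0841 in SBN/y, 0.0834 in SBH/y, 0.0837 averaged and -0.000705 for the difference between responses, and Nfat5 -0.031 averaged and -0.034 between strains with 2 kidneys. With the principal markers, SBN/y gave 0.016 for Slc5a3, 0.190 for Slc14a2 and 0.0080 for Nfat5; SBH/y gave 0.069 for Slc6a6, 0.066 for Slc5a3 and 0.249 for Slc14a2; the average gave 0.041 for Slc5a3 and 0.219 for Slc14a2; Slc14a2 gave 0.060 for the difference between responses and Slc6a6 -0.017 between strains with 1 kidney. Leaving out 1 array, ranges that crossed 0 were -0.121 to 0.080 for Slc5a3 in SBN/y, -0.071 to 0.042 in SBH/y, -0.065 to 0.036 averaged and -0.088 to 0.113 for the difference between responses, -0.137 to 0.066 for that of Slc14a2, -0.0033 to 0.073 for Nfat5 with 2 kidneys and -0.020 to 0.095 for Slc6a6 with 1 kidney. The cause was not tested in any of these. Dim probe sets and 5 or 6 arrays a group limit what could be seen.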
